A study of Mus musculus with 78 samples.

Results

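In epiblast of E6.5 mouse embryos lacking Tet1 and Tet2, the 1 kb stretches of the genome that hold 41 to 60 CpGs were not of 1 kind. Of these 1 kb bins 55.6% were under 20% methylated, 16.4% were over 80% methylated and 28.0% lay between. These bins were chosen by CpG number alone, from a table that lists mm9 CpGs with and without reads. A bin was kept if it lay on an autosome, listed 41 to 60 CpGs and had reads on at least 5 of them. This held for 11452 of the 11761 autosomal bins with that CpG number, among 1379746 autosomal bins of any CpG number with at least 5 covered CpGs. The level of a bin is the share of methylated reads among all reads of its CpGs, both strands together. A read counts at each CpG it covers, so numbers of reads below are counts summed over CpGs and not separate molecules. A level under 20% is called low, one over 80% high, and the rest intermediate.

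The table came from STEM-seq, a bisulfite sequencing method for few cells, and merged 3 libraries of Tet1/2 double knockout epiblast (strain label C57BL/6N x DBA). The embryos came from matings among mice that were Tet1+/- and Tet2-/-, with the stock alleles Tet1tm1.1Jae and Tet2tm1.1Iaai on B6;129 backgrounds, and extraembryonic tissue served for genotyping. Expression values were FPKM of 2 libraries of E6.5 epiblast without a knockout label, from natural matings of C57BL/6N and DBA/2N. Where named, values of E6.5 visceral endoderm, E3.5 trophectoderm and E3.5 inner cell mass are given too, from 2 libraries each. No methylation table of wild-type epiblast was used here, so no value below is an effect of the knockout. No expression values of the knockout embryos were used either, so the absence of the 2 transcripts could not be looked at.

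In mammals most CpGs are methylated, and methylated cytosine is prone to mutate, so that CpGs have become scarce in most of the genome. Stretches that stay unmethylated in the germline keep more of them and are known as CpG islands, which hold the start sites of many genes. TET proteins oxidise methylated cytosine as a step of its removal, and CpG-rich starts of germline genes and the differentially methylated regions of imprinted genes are known as exceptions that carry methylation on both copies or on 1 copy in the embryo.

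Promoter windows of 4 genes show what such a bin can look like at each level. Hoxa10, which patterns the posterior body, stood in a low bin. Peg3, an imprinted gene expressed from the paternal copy, stood in an intermediate one. Rpl10l, a ribosomal protein gene of the testis, and Mael, a gene of the germline piRNA pathway, stood in high ones. The windows run from 250 bases before to 50 bases after the start, 5′ to 3′ on the minus strand of GRCm38.p6, and come from RefSeq. Capitals mark the CpGs, 12 in Hoxa10 (chr6:52240805-52241104), 13 in Peg3 (chr7:6730370-6730669), 13 in Rpl10l (chr12:66284352-66284651) and 24 in Mael (chr1:166238695-166238994).
Hoxa10: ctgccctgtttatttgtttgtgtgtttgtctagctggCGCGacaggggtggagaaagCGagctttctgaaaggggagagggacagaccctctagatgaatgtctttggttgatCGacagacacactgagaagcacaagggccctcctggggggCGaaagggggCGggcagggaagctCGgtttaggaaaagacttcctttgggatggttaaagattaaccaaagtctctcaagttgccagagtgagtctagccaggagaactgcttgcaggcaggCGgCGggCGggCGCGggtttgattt
Peg3: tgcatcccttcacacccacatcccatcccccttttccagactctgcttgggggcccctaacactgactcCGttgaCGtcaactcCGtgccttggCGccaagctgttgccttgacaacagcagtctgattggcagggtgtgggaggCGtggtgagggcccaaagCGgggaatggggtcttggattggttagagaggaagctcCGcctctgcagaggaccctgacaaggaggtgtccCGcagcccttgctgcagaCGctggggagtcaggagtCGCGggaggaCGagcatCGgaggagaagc
Rpl10l: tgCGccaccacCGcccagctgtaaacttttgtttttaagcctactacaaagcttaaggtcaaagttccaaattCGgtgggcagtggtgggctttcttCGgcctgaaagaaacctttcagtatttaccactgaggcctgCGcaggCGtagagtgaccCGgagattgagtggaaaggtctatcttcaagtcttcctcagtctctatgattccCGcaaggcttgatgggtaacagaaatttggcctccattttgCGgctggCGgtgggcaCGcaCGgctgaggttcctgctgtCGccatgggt
Mael: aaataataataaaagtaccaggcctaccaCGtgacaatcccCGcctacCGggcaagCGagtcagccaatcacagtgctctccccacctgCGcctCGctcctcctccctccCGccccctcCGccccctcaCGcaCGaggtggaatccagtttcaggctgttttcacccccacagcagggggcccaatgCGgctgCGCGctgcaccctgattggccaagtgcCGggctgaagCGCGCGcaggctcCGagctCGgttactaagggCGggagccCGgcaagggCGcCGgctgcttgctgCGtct
Of the reads in the mm9 bin around each start, 9 of 160 were methylated for Hoxa10, 65 of 121 for Peg3, 87 of 103 for Rpl10l and 23 of 28 for Mael. CpG number in the window therefore did not order the 4 levels.

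Summed over CpGs, the table held 48994715 read counts, 2.30 per CpG, of which 81.1% were methylated. The 41 to 60 CpG bins were read less, at 1.47 reads per CpG and a median of 65 reads per bin. Depth moved with level: the median was 78 reads in low bins, 54 in intermediate bins and 42 in high bins, and 31.5%, 43.7% and 49.0% of their CpGs had no read. Its part in the results was not tested. The 95% Wilson interval of a bin had a median width of 11.5 points in low, 23.9 in intermediate and 17.9 in high bins. It covers counting error only and takes each count as independent, so it can be too narrow where 1 read covers several CpGs. It lay wholly under 20% in 4351 bins, wholly between 20% and 80% in 1493 and wholly over 80% in 698, while 4910 bins crossed a threshold. With 1 merged table there are no replicates and no test.

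Levels of the 41 to 60 CpG bins fell into a large peak near 0 and a small one near 100. Low bins numbered 6364 (55.6%, against 1.83% of all autosomal bins), intermediate bins 3209 (28.0%, near the 25.5% of all) and high bins 1879 (16.4% against 72.6%). The median level was 16.2%, and the quartiles were 5.71% and 55.1%. A level under 10% was found in 4239 bins, 347 bins stood between 50 and 60%, the fewest of any 10-point step, and 1062 bins stood at 90% or more. Exactly 0 methylated reads were seen in 762 bins and exactly 0 unmethylated reads in 216.

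**Figure D1:**
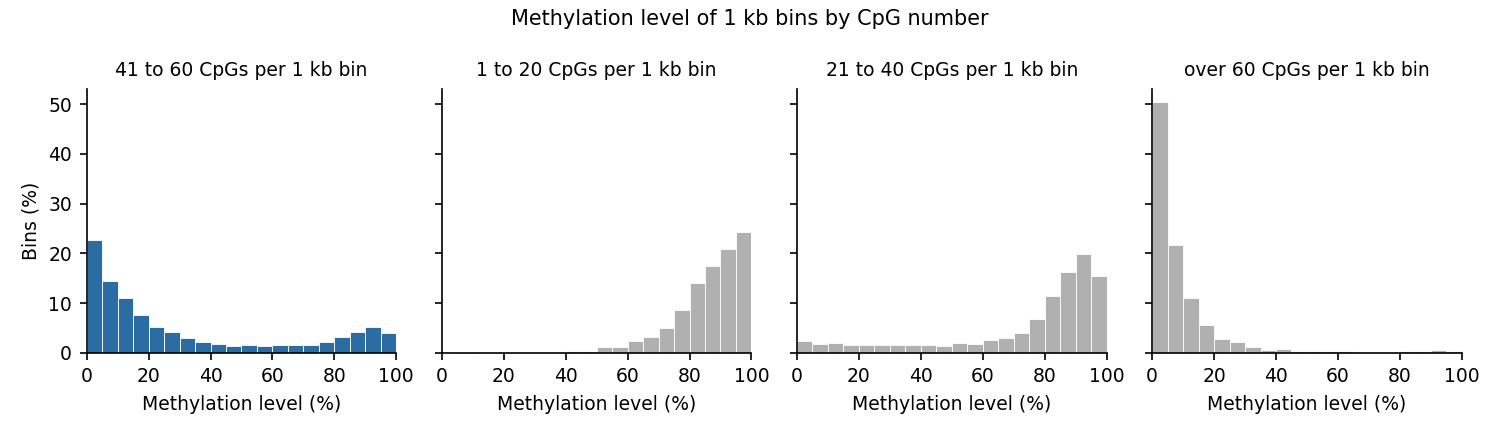
Share of 1 kb autosomal bins (vertical axis, percent) by methylation level (horizontal axis, percent, in steps of 5), with bins of 41 to 60 CpGs at the left and the other CpG classes after it. The 41 to 60 CpG bins have a peak at each end of the scale, with 37.0% of bins under 10% and 9.27% at 90% or more.

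Pooled over 1 to 20, 21 to 40 or over 60 CpGs, bins had a single main peak. Low bins made up 0.312% and high bins 74.4% of those with 1 to 20 CpGs, and 7.61% and 61.8% of those with 21 to 40. Above 60 CpGs 88.7% were low and 1.45% high. At the edges of the range the median level was 33.5% at 41 CpGs beside 44.6% at 40 CpGs, and 9.76% at 60 CpGs beside 9.45% at 61. Among autosomes the low share ran from 49.8% on chromosome 12 to 65.1% on chromosome 11, and the high share from 8.15% on chromosome 19 to 24.7% on chromosome 3.

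**Figure D2:**
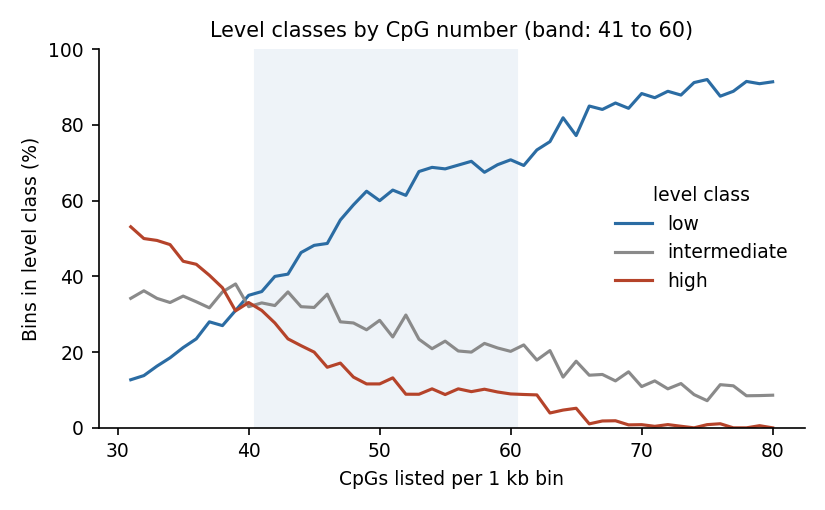
Share of autosomal 1 kb bins in the low, intermediate and high class (vertical axis, percent) for each number of listed CpGs per bin (horizontal axis), with the range of 41 to 60 CpGs shaded. The low share overtakes the high share near 40 CpGs and goes on rising through the shaded range.

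Reads of the Crick and Watson strand are separate reads of the same DNA and placed most bins alike at the ends of the scale. Over 9511 bins with at least 5 covered CpGs on each strand the levels differed by a median of 8.07 points (Pearson r = 0.831, Spearman rho = 0.706, as a description across bins of the same libraries). Of bins low by Crick reads, 82.5% were also low by Watson reads, with a median Watson level of 6.25%. Of bins high by Crick reads 71.8% were high by Watson reads, with a median of 88.7%. Intermediate bins were the least repeatable: 49.3% had the same class by Watson reads, with a median Watson level of 28.9%.

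Low and intermediate bins of 41 to 60 CpGs often had low neighbours, and high ones had low or high neighbours about as often as high bins do over all autosomes. Of 5480 low bins with reads in both neighbours, 810 had low neighbours on both sides (14.8%, against 15.9% of all low autosomal bins), 2528 on 1 side and 2142 on neither. A low neighbour was thus seen for 60.9% of them, close to the 62.5% of all low autosomal bins, and against 4.81% of all autosomal bins. Of 2153 such intermediate bins 36.1% had a low neighbour, against 8.71% of all intermediate autosomal bins. Of 933 such high bins, 553 (59.3%) had high neighbours on both sides and 11 (1.18%) had a low neighbour, against 59.9% and 1.17% of all high autosomal bins. Over 19574 pairs the level of a bin and that of the bin beside it had r = 0.492, at 2 kb r was 0.274 and at 10 kb 0.112. Pairs can share a bin and all come from the same libraries, so these are descriptions.

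**Figure D3:**
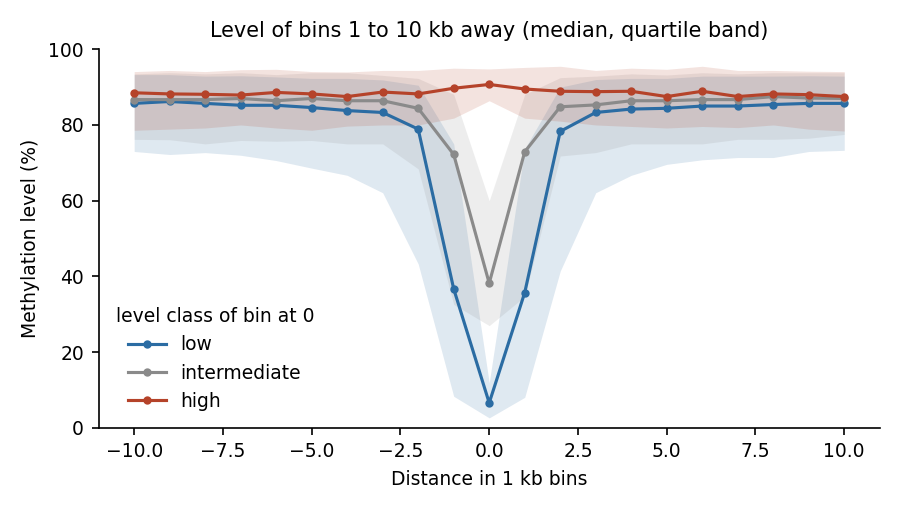
Methylation level (vertical axis, percent) of bins up to 10 kb to either side (horizontal axis, in 1 kb bins) of low, intermediate and high bins of 41 to 60 CpGs, as the median (points) with the band between the quartiles. The bin at 0 was used to form the classes. Around low bins the median of the bins next to them is 36.7% and 35.7%, and at 3 kb it is 83.3% on both sides.

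By the median, low bins sat in narrow dips, but not each of them did. The median level of the bins beside a low bin was 36.7% to the left and 35.7% to the right, and 3 kb away it was 83.3% on each side. Of the bins 3 kb away, 13.0% to the left and 12.6% to the right were still low, against 1.83% of all autosomal bins. Beside intermediate bins the medians were 72.2% and 72.9%. Beside high bins they were 89.7% and 89.5%, close to 88.7% and 88.8% at 3 kb. In segments of 100 bases, pooled methylation in low bins was 5.83% just left of the centre, 10.6% at the left edge and 28.7% 450 bases beyond it. High bins had 5.46 CpGs per 100 bases just left of the centre and 3.73 at their left edge, while low bins had 5.05 and 4.75. Averaged over bins, CpG number thus fell more toward the edge in high bins than in low ones. The spread of CpGs within single bins was not measured.

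**Figure D4:**
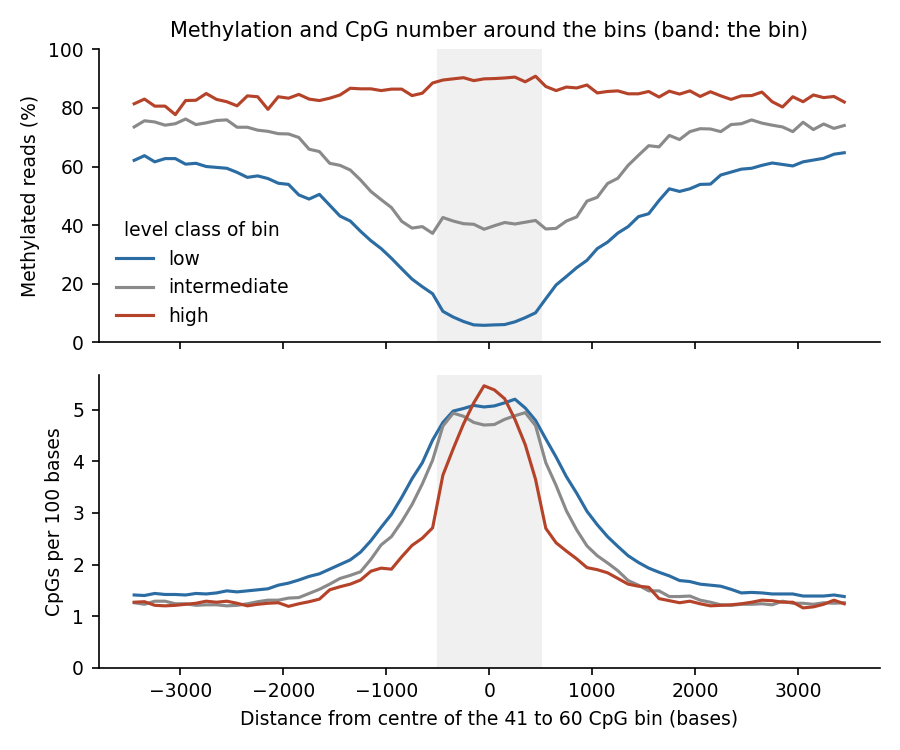
Methylated reads (upper panel, percent) and listed CpGs (lower panel, number per 100 bases) in 100-base segments by distance from the centre of the bin (horizontal axis, bases), pooled over the low, intermediate and high bins of 41 to 60 CpGs, with the bin itself shaded. Just left of the centre methylation is 5.83% in low, 38.6% in intermediate and 89.9% in high bins.

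The relation to neighbours held among neighbours of like CpG number. Neighbours with 21 to 40 CpGs had a median level of 22.0% beside low bins, 61.8% beside intermediate bins and 90.5% beside high bins, against 85.4% for all autosomal bins of that CpG number. Neighbours of 1 to 20 CpGs had medians of 72.2%, 83.8% and 88.9% beside the 3 classes, against 88.5% for all. A read that crosses the border could serve both bins. With the bin classed by Crick reads and the neighbour of 21 to 40 CpGs read by Watson reads, the medians were 20.0%, 61.4% and 90.9%.

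The CpG number of the neighbours moved with the level too. Where a bin of over 60 CpGs adjoined, as for 2358 of the 41 to 60 CpG bins, 71.2% were low (interval 69.4 to 73.0%) and 2.50% high. Where only bins of 20 CpGs or fewer adjoined, as for 3265, 45.0% were low (43.3 to 46.7%) and 22.2% high. Bins that form the edge of a denser stretch were thus low more often than bins that stand alone.

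A low bin shut in by high neighbours was rare. Low bins between 2 high neighbours numbered 132 of 5480 (2.41%), against 2.27% of all low autosomal bins. High bins between 2 low neighbours numbered 0 of 933, where 0.00507% of all high autosomal bins had 2 low neighbours, a share too small to show in 933 bins. Of the low ones, the bin at chr9:72887001-72888000 holds the starts of Pigb, which acts in GPI anchor synthesis, and of Pigbos1, with 4 of 181 reads methylated beside neighbours at 80.6% and 92.3%. The bin at chr16:11144001-11145000 had 226 of 2883 reads methylated, a depth far from the median of 65, and whether those reads belong to that place was not tested.

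Runs of adjacent bins of the same class were short, and they count only bins of 41 to 60 CpGs, so that their length also follows from where such bins adjoin. Where a neighbour of a low bin did have 41 to 60 CpGs, 82.8% of such neighbours were low, against 55.6% of all bins of that CpG number. Of the low bins 81.8% had no other low bin of 41 to 60 CpGs beside them, as had 91.5% of intermediate and 91.8% of high bins for their own class. The longest low run was 6 bins, at chr11:118914001-118920000, with 18 of 487 reads methylated. A run of 5 low bins at chr11:96143001-96148000 holds the start of Hoxb8, a patterning gene of the trunk, with 9 of 405 reads methylated. The longest high run was 5 bins at chr3:93092001-93097000, with 174 of 195 reads methylated, and no gene start was placed in it.

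Intermediate levels took more than 1 form inside a bin. Of 2403 intermediate bins with at least 5 covered CpGs in the left and in the right 500 bases, 188 had a side under 20% and a side over 80%, a further 917 had sides at least 40 points apart, and 1298 had sides closer than that. In the 160 of these 188 with both neighbours read, the bin beside the lower side had a median level of 22.2% and a median of 39 CpGs, and the bin beside the higher side 89.0% and 12 CpGs. An example is chr1:90174001-90175000, which holds the start of Hjurp, a chaperone of centromeric histone. It had 91 of 342 reads methylated and a right neighbour of 9 CpGs at 84.1%.

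Copies of the same sequence were common among methylated bins. As a marker of such copies, a CpG was counted as of repeated spacing where a run of 8 gaps between CpGs around it occurs elsewhere in the genome, and a bin where this holds for at least 50% of its CpGs. By this count 170 low bins (2.67%), 1012 intermediate bins (31.5%) and 1468 high bins (78.1%) were repeated, against 3.88% of all autosomal bins. The 8802 bins whose spacing was not repeated were 70.4% low and 4.67% high, with a median level of 10.8%. The 2650 repeated bins were 6.42% low and 55.4% high, with a median level of 83.3%. Their median share of covered CpGs was 45.2%, against 69.6% in the others, and whether reads of other copies were placed in them was not tested. The dip beside low bins was like in both sets: the median neighbour stood at 39.1% for repeated and 37.8% for other low bins.

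Gene starts were found in low bins far more often than in high bins. A start was placed in mm9 by the spacing of the CpGs in its promoter window, which gave exactly 1 place for 19303 of 19582 windows with at least 5 CpGs. The 41 to 60 CpG bins held 4117 starts of 3712 genes in 3382 bins. Of the starts 3346 (81.3%) were in low bins, 751 (18.2%) in intermediate and 20 (0.486%) in high bins, against 59.1%, 24.0% and 16.9% of all placed starts. Seen from the bins, 42.7% of low, 20.2% of intermediate and 0.958% of high bins held a start. The nearest placed start was more than 5 bins away for 28.0% of low and 94.1% of high bins. Of the 1781 low bins so far from a start, 1690 had no repeated spacing, with a median level of 6.98%. Of the 1769 high bins so far from a start, 1435 had repeated spacing. A start was placed only where its CpG spacing occurred once on its chromosome, and 236 windows were left out for occurring more than once, so starts inside repeated sequence can be missed.

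Genes that start in low bins were more often expressed in epiblast of the other embryos. At least 1 FPKM in both libraries was reached by 1951 of 2695 genes in low bins (72.4%, interval 70.7 to 74.0%), 326 of 586 in intermediate bins (55.6%, 51.6 to 59.6%) and 5 of 12 in high bins (41.7%), against 58.2% of all genes with a placed start. By level the share was 74.8% under 10%, 67.1% at 10 to 20%, 59.1% at 20 to 40%, 45.1% at 40 to 60% and 14 of 40 genes reached it at 60% or more. The median of the mean FPKM was 6.99 in low bins and 1.76 in intermediate bins. The order was not particular to epiblast: in E6.5 visceral endoderm 72.4% of genes under 20%, 54.3% at 20 to 60% and 32.5% at 60% or more reached 1 FPKM in both libraries. In the epiblast libraries the 5 epiblast markers looked at, Pou5f1 among them with 337 and 441 FPKM, were at 96.2 FPKM or more. The 9 markers of visceral endoderm and extraembryonic ectoderm were at 12.7 FPKM or less, Afp at 0.100 and 2.54.

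The germline list holds genes known to be silenced by DNA methylation outside the germline, so methylated starts were part of why they were listed, and their levels are a description. Of its 39 genes, 14 had their start in a bin of 41 to 60 CpGs, and 1 of these was low, 9 were intermediate and 4 high, with a median level of 71.3%, against 81.3% low, 18.2% intermediate and 0.486% high among all starts in such bins. Rpl10l had 87 of 103 reads methylated, Mael 23 of 28, Naa11, a protein acetyltransferase gene of the testis, 14 of 14, and Slc25a31, an ADP/ATP carrier of sperm, 8 of 9. Their intervals reached down to 76.2%, 64.4%, 78.5% and 56.5%, so at this depth none lay wholly over 80%. Just below stood Fkbp6 at 75.9%, Brdt, a bromodomain protein of spermatids, at 72.9%, the piRNA helicase gene Mov10l1 at 72.6%, Stk31 at 69.0% and Hormad1 of the meiotic chromosome axis with 56 of 80 reads methylated. Bins on either side of Mov10l1 were at 86.4% and 100%, and those of Brdt at 85.7% and 84.6%, above the starts themselves in each case.

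Lower levels were seen at 5 of the germline starts. Tdrd1 stood at 40.6% between neighbours at 95.8% and 96.9%, Sycp3 of the synaptonemal complex had 9 of 30 reads methylated, and Tdrkh stood at 26.8% and the recombination gene Rad51c at 25.2%. Zcwpw1, a reader of histone methylation in meiosis, had 0 of 120 reads methylated, which allows up to 3.10% by the Wilson interval. Sycp3 had 23.8 and 21.3 FPKM in the epiblast libraries and Zcwpw1 9.12 and 6.59 FPKM. Mov10l1 had 0.902 and 0.458 FPKM and Brdt 0.136 and 0.100 FPKM. The order did not hold in each case. Tdrd1 had 0.460 and 0.524 FPKM. Of the starts in high bins, Mael had 5.74 and 4.65 FPKM, Slc25a31 1.84 and 1.66 and Naa11 0.387 and 0.267. Rpl10l, whose reads can be shared with its near-identical relative Rpl10, had 6.84 and 6.91 FPKM.

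The letters CACGTG, which read the same on both strands and hold a CpG, occur in the promoter windows of 9 of these 14 germline genes. They occur in 7.15% of all 32851 windows and in 9.65% of the placed windows with at least 5 CpGs. The 9 windows belong to bins with a median of 72.6%, with Sycp3 the lowest and Slc25a31 the highest, and the other 5 to bins at 0 to 100% with a median of 26.8%. They include Mael, where the letters lie in the printed window with their first base at position -223 relative to the start. In low bins 10.8% of starts had them, in intermediate bins 12.6% and in high bins 4 of 20. In bins at 60% or more it was 16 of 66 starts, a set that includes members of the germline list. The letters TGCCGC, searched on both strands, occur in 11.6% of all windows, in 17.8% of the placed windows with at least 5 CpGs and in 2 of the 14. A match is a description and not a bound site.

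Imprinted genes gave 5 starts. Peg3 and Usp29 share the bin at 53.7% (65 of 121 reads, interval 44.9 to 62.4%), Nnat stood at 44.4% (40 of 90), Ndn at 21.5% and Meg3, a noncoding RNA gene expressed from the maternal copy, at 17.4%. In the bins of Peg3 and of Nnat the intervals of the 2 strands did not overlap. A read that covers several CpGs counts at each of them, so these intervals can be too narrow. Whether the strands differ was not tested. In the bin of Peg3 and Usp29, 15 of 48 Crick reads (31.2%, interval 19.9 to 45.3%) and 50 of 73 Watson reads (68.5%, 57.1 to 78.0%) were methylated. In that of Nnat it was 20 of 30 Crick reads (66.7%, 48.8 to 80.8%) and 20 of 60 Watson reads (33.3%, 22.7 to 45.9%). The levels over both strands thus depend on how many reads each strand has. The bin of Peg3 and Usp29 was mixed along its length, and the bins next to it were at 38.4% and 53.8%. Peg3 had 15.7 and 12.8 FPKM in the epiblast libraries.

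Of the starts of body plan regulators, 32 of 33 were low, against 81.3% of all starts in such bins, with a median of 3.17% against 8.43%. Hoxd3 had 0 of 111 reads methylated, Pax6 of eye and brain 0 of 104, Isl1 0 of 102 and Gata3 1 of 119. All 4 were at 0.468 FPKM or less in the epiblast libraries. Gata3 reached 136 and 184 FPKM in E3.5 trophectoderm. The exception by the level of the whole bin was Pax5, a B cell factor, with 22 of 89 reads methylated and neighbours at 100% and 1.82%. The left side of its bin stood at 64.0%, and the right side, which holds the start, at 9.38%. The reverse was seen in the low bins of Foxa1, Nkx2-5 and Hoxd8, with 89, 54 and 32 reads. There the side with the start stood at 26.3%, 20.0% and 33.3%. With symbols of the Gm, Rik and like kinds passed over, 92 genes that start in low bins had 0 FPKM in both epiblast libraries. Over all symbols it was 125 of 2695 genes (4.64%), against 1461 of all 12219 genes with a placed start. The deepest read included Wnt1 with 6 of 122 reads methylated, the neural factors Sp9 with 4 of 137 and Fezf1 with 3 of 128, and the muscarinic receptor gene Chrm2 with 17 of 142.

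Pluripotency and epiblast genes were low at 10 of 10 starts, from 0% to 17.0%, where 81.3% of all starts in such bins are low. Lin28a, an RNA-binding factor of stem cells, had 0 of 107 reads methylated, Dnmt3a, a writer of new methylation, 0 of 55, and Utf1 9 of 68. Low methylation did not go with expression here in each case: Tfcp2l1, a factor of naive pluripotency, had 3 of 70 reads methylated with 0.196 and 0.171 FPKM in E6.5 epiblast, and 52.8 and 47.4 FPKM in E3.5 inner cell mass. Housekeeping genes were low at 6 of 7 starts, near that same share, among them the replication gene Mcm2 with 2 of 129 reads methylated, and Psmc4 of the proteasome stood at 22.8%. The protocadherin list had 0 starts placed.

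**Figure D5:**
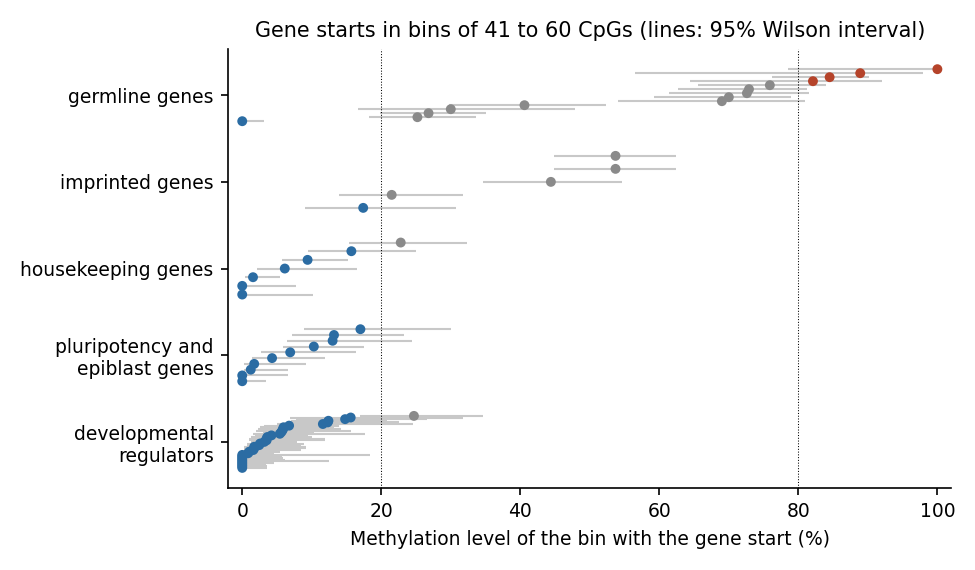
Methylation level (horizontal axis, percent) of the 41 to 60 CpG bin that holds the start of each gene of 5 lists (vertical axis), each point 1 gene start coloured by level class, blue for low, grey for intermediate and red for high, with its 95% Wilson interval as a line. By the level of the whole bin, 13 of 14 germline starts are at 25.2% or more, and 32 of 33 developmental regulators are under 20%. The level at the start itself can differ from that of its bin.

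High levels at gene starts were otherwise scarce. The 20 starts in high bins belong to 19 genes, of which 12 have FPKM values. Beside the list members these include Syce1 of the synaptonemal complex, with 21 of 26 reads methylated, and the meiosis gene Spata22, with 34 of 42. Podxl2 had 19 of 23 reads methylated next to a bin of 95 CpGs at 13.5%. Among intermediate bins that were mixed along their length, Zglp1, a germ cell factor, had 61 of 123 reads methylated between neighbours at 100% and 88.9%, and the fucosyltransferase gene Sec1 62 of 140 between 97.4% and 88.2%.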

How the data were processed

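Methylation values were counts of methylated and unmethylated reads per CpG and strand, deposited by the authors as 1 table that merges 3 libraries; reads were mapped to mm9 with BS-Seeker2 (version not given) after base calling with CASAVA 1.8, per the submitters' processing notes. Expression values were FPKM deposited by the authors, made with TopHat2 2.0.11 and Cufflinks 2.0.2 per the same notes. FPKM of 1e-06 or less were set to 0. Depth of the expression libraries is unknown.

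Counts were summed per 1000-base bin with numpy 2.4.6 in Python 3.11.15; scipy 1.17.1 and pandas 2.3.3 were also used. Wilson intervals are at 95%. The steps were tested on simulated data. No mm9 gene annotation was used. RefSeq promoter windows of GRCm38.p6 with at least 5 CpGs were placed by exact CpG spacing on their own chromosome, and no coordinate was converted. Of 19933 pairs of adjacent starts, 99.9% kept their order.

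Members, gene lists and motifs were chosen with earlier results of these data known. Genes named were, per list, up to 8 with most reads and those outside the list's most frequent class, and the deepest read or most expressed of each level class. Hjurp, Pigb and Pigbos1 came from the regions with most reads. Tdrd1, Stk31, Sycp3, Eomes, T and Foxa2 were named after their values were seen, to account for their lists. Alternatives were other bin borders, coverage minimums, thresholds, single strands, spacing runs and promoter minimums.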

Additional observations from a re-analysis of the deposited data

Results flagged for a closer look

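Chromosome X lay outside the choice of bins and showed a different spread. Its 562 bins of 41 to 60 CpGs had a median level of 43.4%, against 16.2% on autosomes, and 38.4% were low, 32.4% intermediate and 29.2% high. Of these bins 49.3% had repeated CpG spacing, against 23.1% on autosomes, and the median depth was 32.5 reads, against 65. In the 131 of them that hold a gene start the median level was 7.14%, against 8.70% on autosomes. The part of repeated spacing and depth in the difference was not tested.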

How the results depend on the processing

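No paired analysis was possible because the deposited table merges the 3 libraries and no test was made; for the same reason no library could be left out. Of 162 recomputed counts, 110 stayed within 1.5 times the reported one and 52 did not. The low share of single autosomes ran from 49.8% to 65.1%. Moving the borders by 500 bases, taking the mean of single CpGs, leaving out CpGs with more than 20 reads, runs of 12 gaps and 8 CpGs per promoter window moved no count that far. Split bins have a side under 20% and a side over 80%, graded bins have sides at least 40 points apart, and mixed bins have closer ones. With 20 covered CpGs per bin, which few sparse neighbours can have, high bins numbered 1169, low bins with a low neighbour 504 and without 37, high bins with 2 high neighbours 25 and with a low one 1, low bins between 2 high ones 0, and starts in high bins 7. With thresholds of 10% and 90% there were 4239 low, 6187 intermediate and 1026 high bins, 1871 low bins with a low neighbour, 132 high bins with 2 high neighbours, 5 with a low one, 13 low bins between high ones, 679 low bins in runs, 48 split, 1558 graded and 3180 mixed intermediate bins, and 1806 starts in intermediate and 7 in high bins. With 30% and 70% there were 1685 intermediate bins, 918 high bins with 2 high neighbours, 35 with a low one, 424 low bins between high ones, 299 split, 300 graded and 660 mixed intermediate bins, and 304 starts in intermediate and 39 in high bins. Crick reads alone gave 1285 low bins without a low neighbour, 259 high bins with 2 high neighbours, 20 with a low one, 87 low bins between high ones, 788 mixed bins and 36 starts in high bins. Watson reads alone gave 1256 low bins without a low neighbour, 262 high bins with 2 high neighbours, and 570 graded and 744 mixed bins. Repeated low bins numbered 568 with runs of 6 gaps and 612 with any CpG counted. Among members with no other member beside them, 7 high bins had a low neighbour. Chosen after seeing the data, Crick classes with Watson neighbours gave 1275 low bins without a low neighbour and 228 high bins with 2 high neighbours. Whole intervals inside a class left 1493 intermediate and 698 high bins, 498 repeated high and 77 repeated low bins, and 289 starts in intermediate and 5 in high bins. At 5 FPKM, 204 genes in intermediate and 2 in high bins passed. The causes were not tested. Depth limits all classes: the interval lay wholly inside the class for 4351 of 6364 low, 1493 of 3209 intermediate and 698 of 1879 high bins.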
